A study of Mus musculus with 11 samples.

Results

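The genes described here are 10 mouse genes whose transcripts are commonly read as output of the ERK kinases: the phosphatase genes Dusp4 and Dusp6, the Sprouty genes Spry2 and Spry4, the immediate early genes Egr1, Fos and Fosl1, the ETS factor genes Etv4 and Etv5, and Myc. They were taken by symbol, and every probe that the platform annotation gives to 1 of these symbols was read from the authors' normalized table, whatever its value. Of the 10 genes, 9 had a probe, among 22491 genes with a probe in all, and Fosl1, with no probe under that symbol, was not analysed here. The 9 genes had 16 of the 46237 probes. Of these, 15 were above background (detection p under 0.05) on at least 2 arrays and were tested. The second Myc probe, ILMN_1231123, read 88.9 to 103 and was not above background on any array.

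Transcripts were measured on 11 single-colour Illumina bead arrays. All cells were of 1 line of mouse embryonic fibroblasts that is p53-/- and TSC2-/-, grown in DMEM with 4.5 g/L glucose and 10% FBS. Cells given Crebl2 siRNA were measured with rapamycin on 3 arrays and with ethanol on 3 arrays, and cells given luciferase siRNA with rapamycin on 3 arrays and with ethanol on 2 arrays. The labels give 3 days of siRNA, while the series' design text gives a shorter time and writes Creb2, and the drug was 20 nM rapamycin for 12 h. Crebl2 encodes a small bZIP protein. Luciferase, a firefly enzyme, is absent from these cells. The labels do not say whether replicates were separate cultures, so a p-value here speaks of the spread among arrays only, which may be technical. The comparisons ask whether rapamycin was accompanied by higher or lower levels of ERK output transcripts with each siRNA, and whether the siRNAs differed in this.

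ERK1 and ERK2 are the last kinases of the Ras, Raf and MEK cascade that growth factor receptors switch on. Active ERK phosphorylates transcription factors, which turn on immediate early genes such as Egr1 and Fos within minutes, stabilises Myc protein, and raises genes whose products shut the cascade down again, among them Dusp6 and the Sproutys. TSC2 restrains mTORC1, the kinase complex that rapamycin inhibits, and mTORC1 in turn dampens receptor signalling through S6 kinase. ERK phosphorylation was not measured on these arrays.

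The 250 bases before the start of 2 of the genes are shown because Fos and Dusp6, the representatives of immediate early induction and of ERK feedback, changed in opposite directions with luciferase siRNA. They are RefSeq sequences on GRCm38.p6, Fos at chr12:85473640-85473889 and Dusp6 at chr10:99262981-99263230, both on the plus strand and ending just before the annotated start. RefSeq windows were at hand for 4 of the 10 genes (Dusp6, Spry2, Fos and Etv5, 5 windows). Capitals mark TGACG, the short core of the cAMP response element that bZIP factors of the CREB family bind, found on either strand.
Fos: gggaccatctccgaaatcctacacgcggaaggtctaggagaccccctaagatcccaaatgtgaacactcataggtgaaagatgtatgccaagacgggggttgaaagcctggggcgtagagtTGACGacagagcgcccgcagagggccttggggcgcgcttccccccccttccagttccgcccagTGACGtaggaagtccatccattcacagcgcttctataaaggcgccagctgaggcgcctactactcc
Dusp6: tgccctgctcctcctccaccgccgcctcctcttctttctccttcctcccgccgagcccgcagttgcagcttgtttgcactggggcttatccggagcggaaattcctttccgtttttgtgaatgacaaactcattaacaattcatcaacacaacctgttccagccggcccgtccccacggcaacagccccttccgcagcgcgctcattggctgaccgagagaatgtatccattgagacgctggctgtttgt
The Fos window held 2 such cores, which began 129 and 66 bases before the start. TGACG was found in 17.8% of 32851 windows of the same length. Neither the full element TGACGTCA (1.55% of windows, and overlapping TGACG), nor the ETS motif CCGGAAGT (2.88%), nor the AP-1 motif TGAGTCA (4.46%), nor the CArG box that SRF binds (1.47%) was found in any of the 5 windows, on either strand, and Dusp6 matched no motif searched. These are matches of letters in a window and not binding sites.

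Over the 28936 probes above background on at least 2 arrays, the arrays fell into sets that cut across the labels. This touches every comparison below that involves Crebl2 siRNA, and also the p-values of rapamycin with luciferase siRNA. The fit holds 1 estimate of spread per probe over all 11 arrays, so the spread of the Crebl2 ethanol arrays enters those p-values. With luciferase siRNA, 2099 of all probes had an adjusted p under 0.05 (limma). Without replicate 3 of the Crebl2 ethanol arrays it was 5172, at the same median log2 change (0.01). The 3 arrays of Crebl2 siRNA with rapamycin and replicate 3 of Crebl2 siRNA with ethanol stood apart from the other 7 on the component that held 76.2% of the variance. Correlations were 0.989 to 0.995 within the 4 arrays, 0.984 to 0.996 within the 7 and 0.92 to 0.94 across them. The labels name no batch, and apart from that 1 ethanol array the set and the group cannot be told apart. Changes of the Crebl2 rapamycin arrays against that ethanol array alone are therefore given for each gene. A fit with a term for the 4 arrays, used below, sets those rapamycin arrays against the same 1 array, so both are 1 comparison. The term fits this array exactly, so p-values from that fit for the Crebl2 rapamycin arrays hold no spread of it. On the second component (9.82%) the rapamycin arrays of both siRNAs lay on 1 side and all 5 ethanol arrays, replicate 3 included, on the other. Medians of the arrays were 110.5 to 112.4 and 46.9 to 51.2% of probes were above background. Crebl2 had 1 probe near background, whose change with its siRNA did not pass the test (log2 change -0.30 ± 0.12 SE with rapamycin, adjusted p = 0.082, and -0.19 ± 0.13 with ethanol, adjusted p = 0.470), so the knockdown was not shown by this probe. Tsc2 transcript was above background on all 11 arrays with all 3 of its probes, at 533 to 1014 (ILMN_1214823), 582 to 1253 (ILMN_3135566) and 132 to 266 (ILMN_2656924). Transcript can persist outside a deleted part, and where these probes lie relative to it is not given in the sources used here, so they do not check the genotype. Of the markers examined, 7 of 7 fibroblast genes were detected on all arrays, against 1 of 5 macrophage, 2 of 4 endothelial and 3 of 4 epithelial genes, with Ptprc, Adgre1 and Epcam on none. With rapamycin, 1 of 3 epithelial genes tested rose with both siRNAs (Krt18, 0.70 with Crebl2 siRNA and 0.74 with luciferase siRNA), and 0 of 7 fibroblast genes were called with either. Between the siRNAs with ethanol 1 epithelial gene was lower, and with rapamycin 2 epithelial genes were lower, 2 fibroblast genes higher and 3 lower. The part of these markers in the results below was not tested. In a bulk extract, fewer cells with a transcript and less transcript per cell cannot be told apart.

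With rapamycin, Dusp4, Dusp6 and Egr1 were higher after Crebl2 siRNA, while after luciferase siRNA Dusp4 and Dusp6 were higher and Fos and Etv5 lower. Each is read from the gene's probe with the highest mean. The other Dusp4 probes did not rise with luciferase siRNA (-0.22, -0.23 and -0.01). A probe was called where limma's adjusted p (Benjamini-Hochberg over 28936 probes) was under 0.05. The 15 probes counted here and below include Spry2 and Dusp4 ILMN_2608995. Both were above background only on arrays with Crebl2 siRNA, and were tested only through those arrays. With Crebl2 siRNA 4 of the 15 probes were called (26.7%), all 4 higher, against 9.03% of all probes (4.26% higher, 4.77% lower). With luciferase siRNA 4 of 15 were called, 2 higher and 2 lower, against 7.25% of all probes (3.81% higher, 3.45% lower). The median log2 change over the 15 probes was 0.20 with Crebl2 siRNA and -0.10 with luciferase siRNA, against -0.02 and 0.01 over all probes. The rapamycin and ethanol arrays did not overlap for 5 of the 15 probes with Crebl2 siRNA and for 8 with luciferase siRNA, against 23.9% and 41% of all probes. The change was above 0 for 14 of the 15 probes with Crebl2 siRNA and for 5 of them with luciferase siRNA. The share over all probes is not given here, and several probes of 1 gene are counted apart. The 14 include small changes near background (Spry4 0.02, Myc 0.04 and Dusp4 ILMN_2608995 0.04). Against replicate 3 of the Crebl2 ethanol arrays alone, Spry2 (-0.10) and Fos (-0.04) were below 0. The difference between the changes (Crebl2 siRNA minus luciferase siRNA) was called for 1 probe, Egr1, against 0.232% of all probes (0.128% higher, 0.104% lower). Its median was 0.43 over the 15 probes and -0.03 over all. At an unadjusted p under 0.05 (limma) were 9 of the 15 probes, against 3837 of all 28936. Without replicate 3 of the Crebl2 ethanol arrays, the set that stood apart and the Crebl2 rapamycin group coincide. Of all 28936 probes, 7244 were then called in this difference, and 6950 with array weights, against 67 in the main fit. Scaling bears on the directions with Crebl2 siRNA: of all probes called, 1233 were higher and 1381 lower, against 979 and 1963 after a further quantile normalization and 480 and 1220 after background correction of the non-normalized intensities (neqc). The count of these 15 probes called with luciferase siRNA was 0 without replicate 1 of the luciferase ethanol arrays and 0 without replicate 2. It was 2 without replicate 2 and 1 without replicate 3 of the luciferase rapamycin arrays. The calls over all probes fell as well, from 2099 to 687, 584, 1365 and 1230 in these fits. In a fit of only the 7 arrays that did not stand apart, 6 of the 15 were called, where 5113 of all probes were. Both higher calls with luciferase siRNA were lost under background correction, by normexp (Dusp4 0.62, adjusted p = 0.0702, and Dusp6 0.52, adjusted p = 0.137) and by neqc (0.59, adjusted p = 0.0682, and 0.52, adjusted p = 0.133). Fos was lost under normexp (-1.11, adjusted p = 0.0589) and Etv5 under neqc (-1.0, adjusted p = 0.0509). With Crebl2 siRNA the count was 2 without replicate 1 or 2 of its ethanol arrays or replicate 1 of its rapamycin arrays. Of all probes, 630, 642 and 698 were called in those fits, against 2614 with all arrays.

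**Figure D1:**
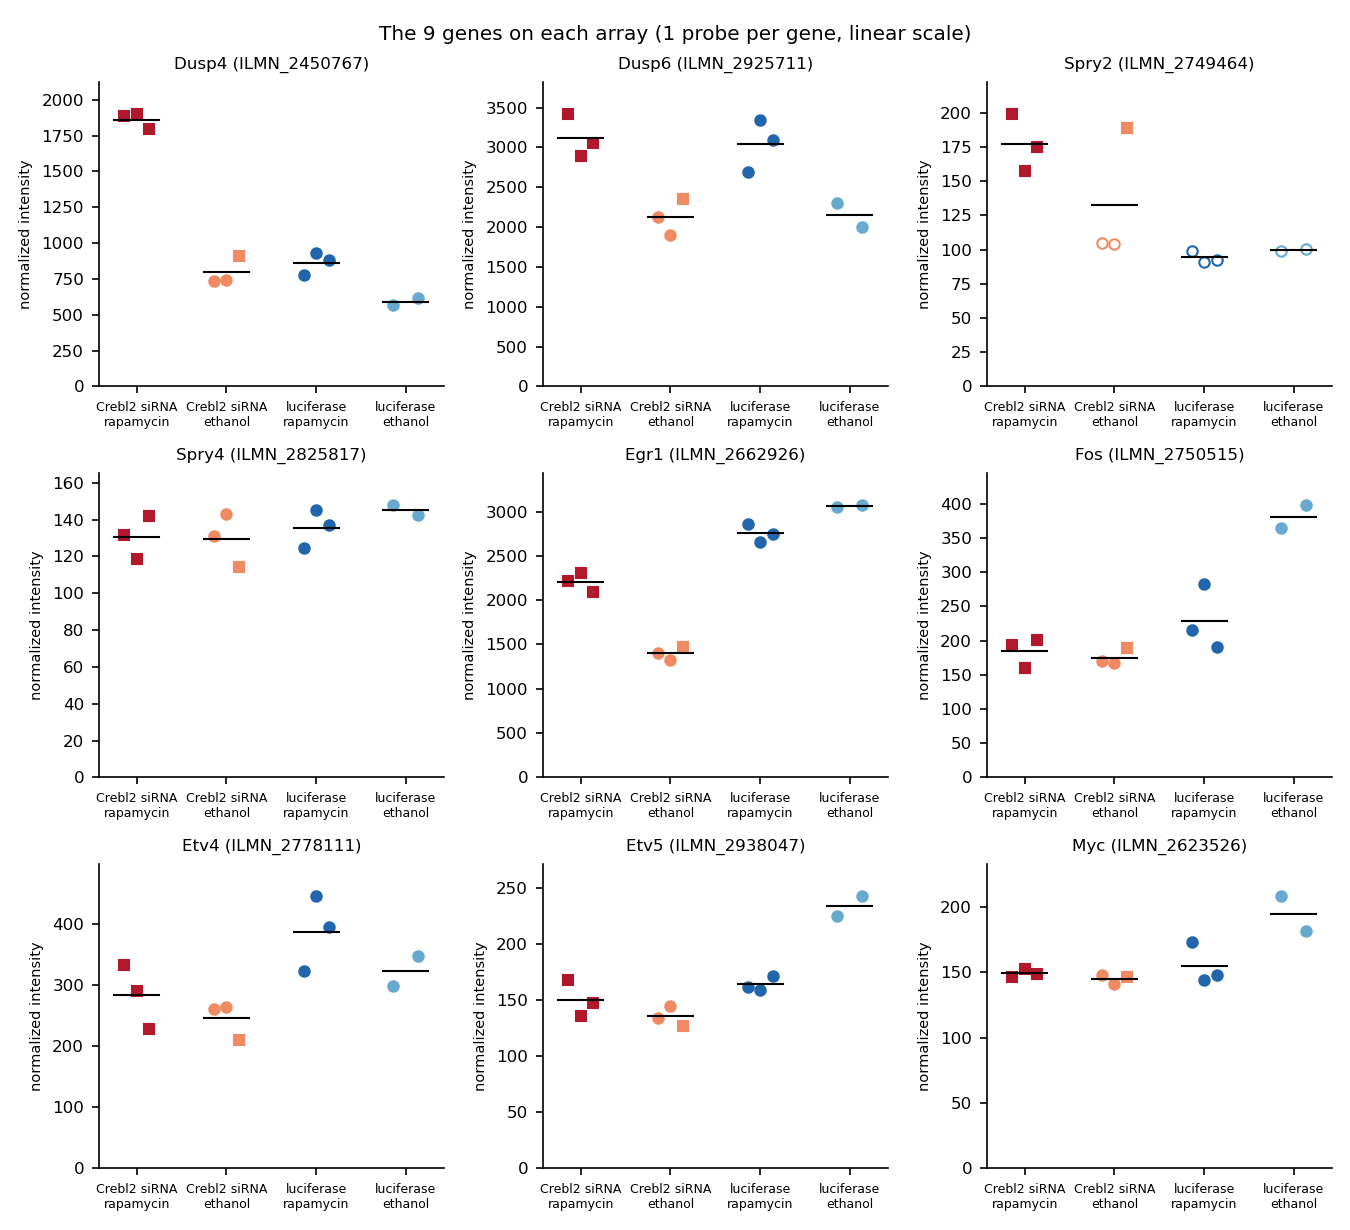
Normalized intensity (linear axis from 0) of 1 probe for each of the 9 genes on each of the 11 arrays, in the order Crebl2 siRNA with rapamycin, Crebl2 siRNA with ethanol, luciferase siRNA with rapamycin, luciferase siRNA with ethanol. Squares are the 4 arrays that stood apart, open symbols are not above background, and bars are group means; for Egr1 the Crebl2 ethanol arrays are lowest (1326 to 1474) and the luciferase ethanol arrays highest (3051 and 3073).

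Dusp4 encodes a nuclear phosphatase that inactivates ERK and related MAP kinases. It had 4 probes, and the one with the highest mean, ILMN_2450767, stands for the gene here. Its intensities were 1889, 1900.4 and 1796 with Crebl2 siRNA and rapamycin, against 737, 739 and 911 with Crebl2 siRNA and ethanol. They were 779, 932 and 879 with luciferase siRNA and rapamycin, against 569 and 614 with luciferase siRNA and ethanol. With both siRNAs every rapamycin array lay above every ethanol array. Dusp4 rose 2.35-fold with Crebl2 siRNA (log2 change 1.23 ± 0.10 SE, adjusted p = 0.000562) and 1.46-fold with luciferase siRNA (0.54 ± 0.11, adjusted p = 0.0158). Against replicate 3 of the Crebl2 ethanol arrays alone, the array of their own set, the Crebl2 rapamycin arrays were 1.03 higher on the log2 scale, and against replicates 1 and 2 they were 1.33 higher. The difference between the siRNAs, 0.69 ± 0.15, did not pass (adjusted p = 0.111), nor was it called with the term for the 4 arrays. It was called without replicate 3 of the Crebl2 ethanol arrays (0.79, adjusted p = 6.01e-05) and with array weights (0.77, adjusted p = 0.000243). Those 2 fits called 7244 and 6950 of all probes in the difference. The luciferase call was lost without either luciferase ethanol array (adjusted p = 0.147 without replicate 1, 0.0857 without replicate 2) and without replicate 2 or 3 of the luciferase rapamycin arrays (0.0563 each), with the log2 change between 0.48 and 0.60.

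The rise with luciferase siRNA was not seen with the other Dusp4 probes, and with Crebl2 siRNA their changes were smaller. ILMN_2689731 read 556, 533 and 508 with Crebl2 siRNA and rapamycin, against 443, 436 and 353 with Crebl2 siRNA and ethanol, so that those groups did not overlap. It read 624, 509 and 565 with luciferase siRNA and rapamycin, against 612 and 706 with luciferase siRNA and ethanol, and those overlapped. Its log2 change was 0.38 ± 0.11 with Crebl2 siRNA (adjusted p = 0.0568) and -0.22 ± 0.12 with luciferase siRNA (adjusted p = 0.399). Against replicate 3 of the Crebl2 ethanol arrays alone, as with the term for the 4 arrays, its change was 0.59 and the difference between siRNAs 0.81. Without replicate 3 the probe was called in both (0.28, adjusted p = 0.0337, and 0.50, adjusted p = 0.0103). ILMN_2870965 had changes of 0.21 ± 0.10 with Crebl2 siRNA (adjusted p = 0.224, and 0.28 against replicate 3 alone) and -0.23 ± 0.11 with luciferase siRNA (adjusted p = 0.328). ILMN_2608995 was above background on 3 of 11 arrays, all with Crebl2 siRNA, and was tested only through them. With luciferase siRNA, then, 1 of 4 Dusp4 probes had a change above 0.

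Dusp6 encodes the cytoplasmic phosphatase specific for ERK, and its transcript is a standard readout of ERK activity. Its representative probe, ILMN_2925711, read 3419, 2891 and 3061 with Crebl2 siRNA and rapamycin, against 2130.2, 1902 and 2357 with Crebl2 siRNA and ethanol. With luciferase siRNA it read 2698, 3346 and 3088 with rapamycin, against 2302 and 2000.1 with ethanol. The rapamycin and ethanol arrays did not overlap with either siRNA. Dusp6 rose 1.47-fold with Crebl2 siRNA (0.55 ± 0.11, adjusted p = 0.0171) and 1.41-fold with luciferase siRNA (0.50 ± 0.13, adjusted p = 0.0385). The changes differed by 0.06 ± 0.17 (adjusted p = 0.904, 95% interval -0.32 to 0.43). Within the 4 arrays the 3 rapamycin arrays were 0.40 above the 1 ethanol array. This probe's calls were among the least stable: with the term for the 4 arrays the Crebl2 call was lost (0.40, adjusted p = 0.0863), and it was also lost without replicate 1 or 2 of the Crebl2 ethanol arrays (0.56, adjusted p = 0.0628, and 0.48, adjusted p = 0.0749) or replicate 1 or 3 of the Crebl2 rapamycin arrays (0.49, adjusted p = 0.0723, and 0.57, adjusted p = 0.0601). The luciferase call was lost without replicate 1 or 2 of the luciferase ethanol arrays (adjusted p = 0.101 and 0.313) and replicate 2 or 3 of the luciferase rapamycin arrays (0.123 and 0.111). It was lost narrowly without replicate 1 of the Crebl2 ethanol arrays (0.0528) or replicate 2 or 3 of the Crebl2 rapamycin arrays (0.0528 and 0.0628). Fits without a Crebl2 array hold the same luciferase arrays and the same luciferase change, 0.50, with another estimate of the shared spread.

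A second Dusp6 probe moved with the set of arrays as well as with rapamycin. ILMN_1248537 read 1887, 1572 and 1552 with Crebl2 siRNA and rapamycin, against 403, 423 and 1057 with Crebl2 siRNA and ethanol. It read 579, 545 and 556 with luciferase siRNA and rapamycin, against 441 and 383 with luciferase siRNA and ethanol. Replicate 3 of the Crebl2 ethanol arrays was thus 1.36 above replicates 1 and 2 on the log2 scale. The change with Crebl2 siRNA was 2.95-fold (1.56 ± 0.29, adjusted p = 0.0124), and the rapamycin arrays were 0.65 above replicate 3 alone and 2.01 above replicates 1 and 2. The term for the 4 arrays gave the same 0.65, from the same arrays. The Crebl2 call was lost without replicate 1 or 2 of the Crebl2 ethanol arrays (1.31, adjusted p = 0.0511, and 1.35, adjusted p = 0.0543) or replicate 1 of the Crebl2 rapamycin arrays (1.47, adjusted p = 0.0573). With luciferase siRNA the change was 0.45 ± 0.33 (adjusted p = 0.558), and it was called without replicate 3 of the Crebl2 ethanol arrays (0.45, adjusted p = 0.00212). The difference between siRNAs, 1.11 ± 0.44, was not called (adjusted p = 0.334), nor was it with the term for the 4 arrays. Against replicate 3 alone the Crebl2 change was 0.65, beside 0.45 with luciferase siRNA. The difference was called without replicate 3 (1.57, adjusted p = 1.82e-09) and with array weights (1.51, adjusted p = 4.66e-05). Those 2 fits called 7244 and 6950 of all probes in the difference. The third probe, ILMN_2701321, read 101 to 136 and changed by -0.01 with Crebl2 siRNA and 0.03 with luciferase siRNA (adjusted p = 0.971 and 0.958).

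**Figure D2:**
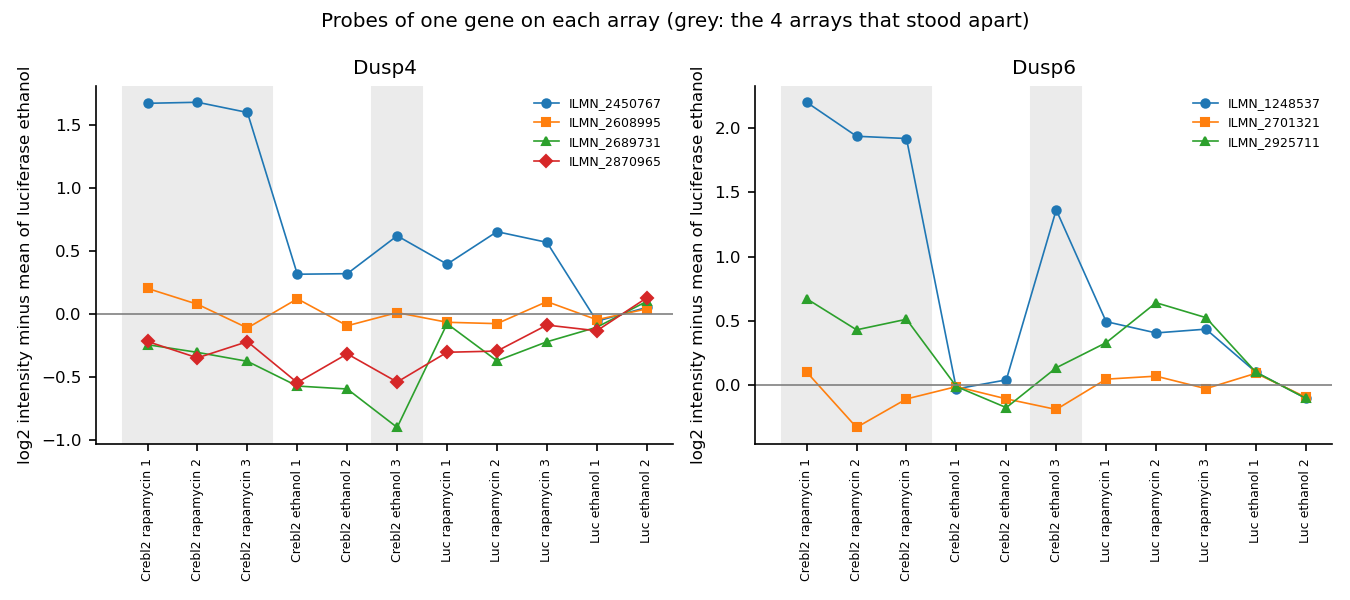
Each Dusp4 and Dusp6 probe on each array, as log2 intensity minus the mean of that probe over the luciferase ethanol arrays, with the 4 arrays that stood apart in grey. Dusp4 ILMN_2450767 and Dusp6 ILMN_1248537 lie highest on the Crebl2 rapamycin arrays, and replicate 3 of the Crebl2 ethanol arrays lies 1.36 above its replicates for ILMN_1248537 and 0.30 above them for ILMN_2450767.

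Spry2 and Spry4 encode membrane-bound inhibitors of receptor-to-Ras signalling that ERK itself induces, and neither had a called change with rapamycin with all arrays in the fit. Spry2 (ILMN_2749464) read 199, 158 and 175 with Crebl2 siRNA and rapamycin, against 105, 104 and 189 with Crebl2 siRNA and ethanol. It read 99.3, 90.8 and 92.6 with luciferase siRNA and rapamycin, against 99.2 and 100.4 with luciferase siRNA and ethanol. The 4 arrays that stood apart were above background and the other 7 were not, so the probe was tested only through the arrays where it is high and its values are given as a description. Within those 4 arrays, the rapamycin arrays differed from the ethanol array by -0.10 on the log2 scale, and 1 of the 3 lay above it. Spry4 read 132, 118 and 142 with Crebl2 siRNA and rapamycin, against 131, 143 and 114 with Crebl2 siRNA and ethanol. It read 125, 145 and 137 with luciferase siRNA and rapamycin, against 148 and 142 with luciferase siRNA and ethanol. The groups overlapped with both siRNAs, at changes of 0.02 (adjusted p = 0.946, and 0.19 against replicate 3 alone) and -0.10 ± 0.12 (adjusted p = 0.766).

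Egr1 is a zinc-finger transcription factor and an immediate early gene that ERK switches on through ETS partners of SRF. It was the only one of these genes whose difference between the rapamycin changes was called. The difference for Fos, 0.82, was of like size but was not called. It read 2218, 2312 and 2087 with Crebl2 siRNA and rapamycin, against 1406, 1326 and 1474 with Crebl2 siRNA and ethanol. It read 2865, 2655 and 2753 with luciferase siRNA and rapamycin, against 3051 and 3073 with luciferase siRNA and ethanol. The rapamycin arrays lay above all ethanol arrays with Crebl2 siRNA and below both ethanol arrays with luciferase siRNA. Egr1 rose 1.57-fold with Crebl2 siRNA (0.65 ± 0.07, adjusted p = 0.0013), while the change with luciferase siRNA, -0.15 ± 0.08, was not called (adjusted p = 0.370). The changes differed by 0.81 ± 0.11 (adjusted p = 0.0233, 95% interval 0.56 to 1.05). Within the 4 arrays the 3 rapamycin arrays were all above the ethanol array, by 0.58. With the term for these arrays, which rests on that 1 ethanol array, the difference between siRNAs was 0.73. Replicate 3 of the Crebl2 ethanol arrays was 0.11 above its replicates. The Crebl2 change was called in 22 of 22 alternatives (0.58 to 0.69). The difference was called in 9 of 21 (0.73 to 0.85, adjusted p 1.4e-05 to 0.223), and not under normexp, neqc or the replicate block. Leaving out an array kept its size and ended its call in 9 of 11 cases: without luciferase ethanol replicate 1 (0.81, adjusted p = 0.126) or 2 (0.80, 0.201), luciferase rapamycin replicate 2 (0.78, 0.0725) or 3 (0.80, 0.0796), Crebl2 ethanol replicate 1 (0.81, 0.0682) or 2 (0.77, 0.0548), or Crebl2 rapamycin replicate 1 (0.80, 0.102), 2 (0.77, 0.0775) or 3 (0.84, 0.0659).

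Fos, the AP-1 subunit that is the classic rapid response to growth factors, had its change under luciferase siRNA. Its intensities were 193, 159 and 200.4 with Crebl2 siRNA and rapamycin, against 169.7, 167 and 189 with Crebl2 siRNA and ethanol, with overlap. They were 215, 282 and 190.0 with luciferase siRNA and rapamycin, against 364 and 398 with luciferase siRNA and ethanol, without overlap. The luciferase ethanol arrays were the highest of all 11. Fos fell by 0.75 ± 0.16 on the log2 scale with luciferase siRNA (ratio 0.594, adjusted p = 0.0164) and had a change of 0.07 ± 0.14 with Crebl2 siRNA (adjusted p = 0.811, and -0.04 against replicate 3 alone). The difference, 0.82 ± 0.21, did not pass (adjusted p = 0.166), nor did it with the term for the 4 arrays. It passed without replicate 3 of the Crebl2 ethanol arrays (0.88, adjusted p = 0.000441) and with array weights (0.90, adjusted p = 0.00179). Those 2 fits called 7244 and 6950 of all probes in the difference. The luciferase call was lost without replicate 1 or 2 of the luciferase ethanol arrays (-0.82, adjusted p = 0.0875, and -0.69, adjusted p = 0.156) and without replicate 1 or 3 of the luciferase rapamycin arrays (-0.72, adjusted p = 0.0563, and -0.63, adjusted p = 0.055).

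Etv4 and Etv5, PEA3-family ETS factors that FGF and ERK signalling induce in many tissues, differed from each other. Etv5 (ILMN_2938047) read 168, 136 and 147 with Crebl2 siRNA and rapamycin, against 134, 145 and 127 with Crebl2 siRNA and ethanol, with overlap. It read 162, 159 and 171 with luciferase siRNA and rapamycin, against 225 and 243 with luciferase siRNA and ethanol, without overlap. Etv5 fell by 0.51 ± 0.10 on the log2 scale with luciferase siRNA (ratio 0.702, adjusted p = 0.0136), and its change with Crebl2 siRNA was 0.15 ± 0.09 (adjusted p = 0.340, and 0.24 against replicate 3 alone). The luciferase call was lost without replicate 1 or 2 of the luciferase ethanol arrays (-0.57, adjusted p = 0.0678, and -0.46, adjusted p = 0.144). The second Etv5 probe, ILMN_1235329, had changes of 0.09 with Crebl2 siRNA (adjusted p = 0.602, and 0.24 against replicate 3 alone) and -0.26 ± 0.10 with luciferase siRNA (adjusted p = 0.189), of the same signs. The difference between siRNAs for the first probe, 0.66 ± 0.14, did not pass (adjusted p = 0.10). With the term for the 4 arrays, which rests on replicate 3 of the Crebl2 ethanol arrays alone, it was 0.75. It passed without that replicate (0.62, adjusted p = 0.00159) and with array weights (0.62, adjusted p = 0.00248). Those 2 fits called 7244 and 6950 of all probes in the difference. Etv4 read 333, 291 and 228 with Crebl2 siRNA and rapamycin, against 261, 265 and 210.0 with Crebl2 siRNA and ethanol. It read 322, 445 and 394 with luciferase siRNA and rapamycin, against 298 and 347 with luciferase siRNA and ethanol. Its changes, 0.20 ± 0.16 and 0.25 ± 0.18, were not called (adjusted p = 0.476 and 0.540), and the groups overlapped with both siRNAs. Against replicate 3 alone the Crebl2 change of Etv4 was 0.42.

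Myc, the growth-promoting bHLH factor, read 147, 152 and 149 with Crebl2 siRNA and rapamycin, against 148, 141 and 146 with Crebl2 siRNA and ethanol. It read 174, 144 and 148 with luciferase siRNA and rapamycin, against 208 and 181 with luciferase siRNA and ethanol. The luciferase ethanol arrays were the highest, and the other 3 groups overlapped. The change was 0.04 ± 0.09 with Crebl2 siRNA (adjusted p = 0.820, and 0.03 against replicate 3 alone) and -0.33 ± 0.10 with luciferase siRNA (adjusted p = 0.0731). The luciferase change was called without replicate 1 of the luciferase rapamycin arrays (-0.41, adjusted p = 0.0322) and without replicate 3 of the Crebl2 ethanol arrays (-0.33, adjusted p = 0.0196).

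**Figure D3:**
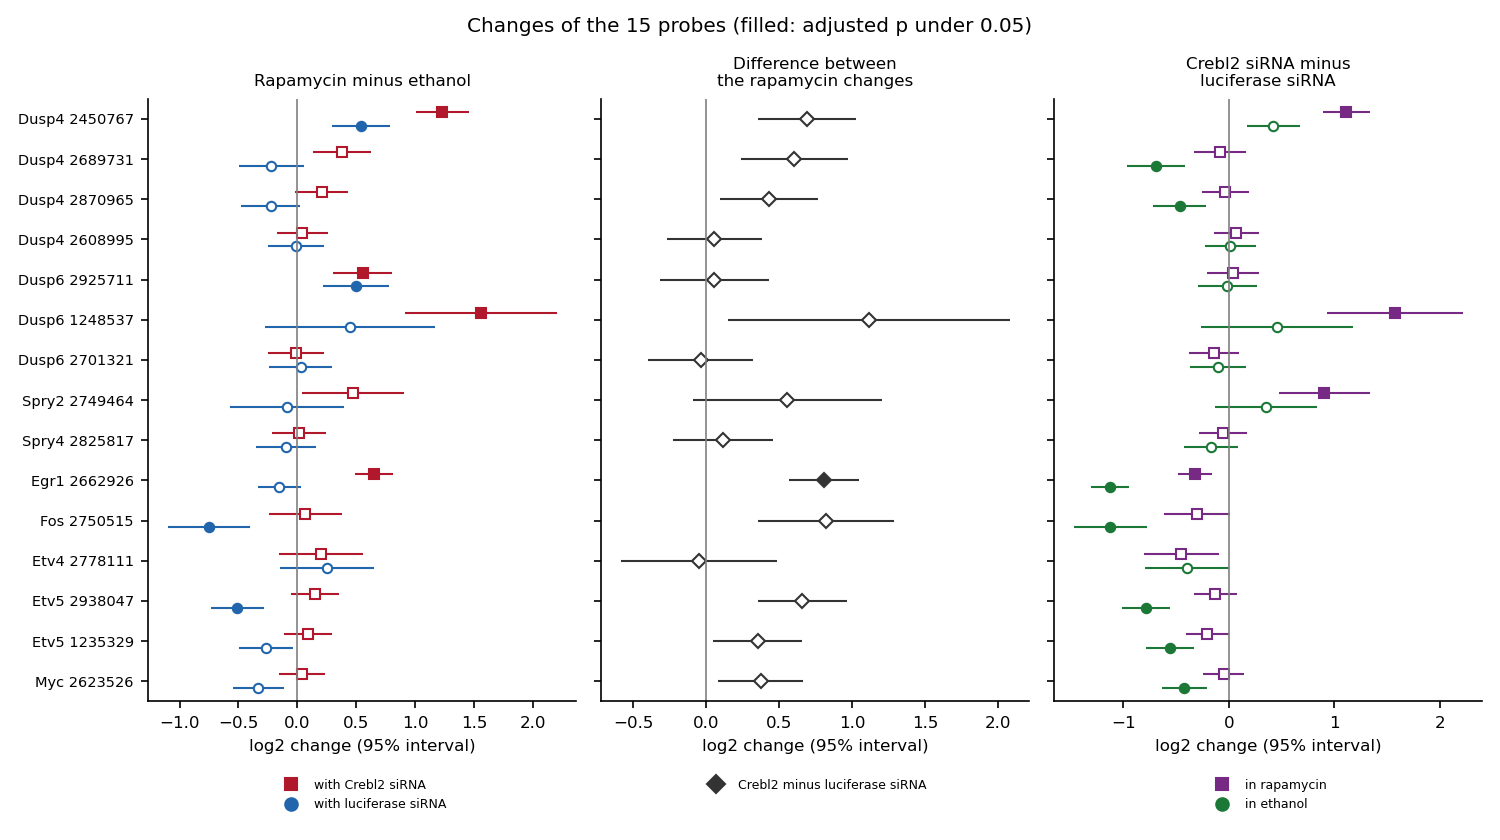
Log2 change of each of the 15 probes with its 95% interval, filled where called: rapamycin minus ethanol with each siRNA, the difference between these changes, and Crebl2 siRNA minus luciferase siRNA with each treatment. With Crebl2 siRNA the 4 called rapamycin changes are all above 0 (4.26% of all probes were called higher). With ethanol the 7 called Crebl2 siRNA changes are all below 0 (4.41% of all probes were called lower).

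Crebl2 siRNA was set against luciferase siRNA with ethanol and with rapamycin. These comparisons use the same arrays as those above, so their values are not separate evidence of a change. With ethanol, the basal level of Egr1, Fos, Etv5, Myc and 2 Dusp4 probes was lower with Crebl2 siRNA: 7 of the 15 probes were called (46.7%), all 7 lower, against 5.52% of all probes (4.41% lower, 1.11% higher). The groups did not overlap for 10 of the 15 probes, against 35.4% of all probes. The median log2 change over the 15 was -0.40, against -0.02 over all probes. Egr1 was at 1402 ± 74 with Crebl2 siRNA, against 3062 ± 15.8 with luciferase siRNA (SD, n = 3 and 2), a fall of 2.19-fold (-1.13 ± 0.08, adjusted p = 0.0001). Fos was at 175 ± 11.8, against 381 ± 23.9, a fall of 2.18-fold (-1.12 ± 0.16, adjusted p = 0.00322). Etv5 fell with both probes (-0.79 ± 0.10, adjusted p = 0.00213, and -0.56 ± 0.10, adjusted p = 0.0120). Myc was at 145 ± 3.62, against 195 ± 19.1 (-0.42 ± 0.10, adjusted p = 0.0322). Without replicate 3 of the Crebl2 ethanol arrays, thus within the 7 arrays that did not stand apart, the changes were -1.17 for Egr1, -1.18 for Fos, -0.74 for Etv5 and -0.43 for Myc.

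The Dusp4 probes split in this comparison. ILMN_2689731 (-0.69 ± 0.12, adjusted p = 0.0104) and ILMN_2870965 (-0.47 ± 0.11, adjusted p = 0.0401) fell, while ILMN_2450767 had a change of 0.42 ± 0.11 (adjusted p = 0.0569), which was called without replicate 3 of the Crebl2 ethanol arrays (0.32, adjusted p = 0.0495). Dusp6 (ILMN_2925711) was at 2129.7 ± 228, against 2151 ± 213, a change of -0.02 ± 0.13 (adjusted p = 0.962). Spry4 and Etv4 had changes of -0.17 and -0.40 that were not called (adjusted p = 0.464 and 0.262). The luciferase ethanol group had 2 arrays, and the count fell to 4 without its replicate 1 and to 2 without its replicate 2. Of all probes, 422 and 224 were then called, against 1598 with all arrays. In a fit of only the 7 arrays that did not stand apart, 7 of the 15 were called, where 3058 of all probes were. Without replicate 2 the Fos call was lost (-1.06, adjusted p = 0.0599), as was that of Dusp4 ILMN_2689731 (-0.58, adjusted p = 0.143). Without replicate 1 or 2, Myc was lost (-0.32, adjusted p = 0.27, and -0.52, adjusted p = 0.0931), and the second Etv5 probe (-0.63, adjusted p = 0.0573, and -0.48, adjusted p = 0.152). Myc was also lost without replicate 1 or 2 of the Crebl2 ethanol arrays (-0.44, adjusted p = 0.0575, and -0.40, adjusted p = 0.0703) or any 1 Crebl2 rapamycin array (-0.42, adjusted p 0.0533 to 0.055). Dusp4 ILMN_2870965 was lost without replicate 1 or 2 of the luciferase ethanol arrays (-0.60, adjusted p = 0.0725, and -0.33, adjusted p = 0.351), replicate 1 of the Crebl2 ethanol arrays (-0.43, adjusted p = 0.0895), replicate 1 or 2 of the luciferase rapamycin arrays (adjusted p = 0.0565 and 0.0587) or any 1 Crebl2 rapamycin array (adjusted p 0.0587 to 0.0643). In a fit of these 2 groups alone no probe was called by limma, with 9 of the 15 at an unadjusted p under 0.05, against 3662 of all 28936 probes.

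With rapamycin, 4 of the 15 probes were called between the siRNAs (26.7%), 3 higher and 1 lower with Crebl2 siRNA, which is near the 30% of all probes (12.1% higher, 17.9% lower). All 3 arrays of Crebl2 siRNA with rapamycin belong to the set that stood apart and none of luciferase siRNA with rapamycin does. Dusp4 ILMN_2450767 was at 1862 ± 57.1 with Crebl2 siRNA, against 863 ± 77.5 with luciferase siRNA (2.16-fold, 1.11 ± 0.10, adjusted p = 0.000225). Dusp6 ILMN_1248537 was at 1670.4 ± 188, against 559.9 ± 17.4 (2.97-fold, 1.57 ± 0.29, adjusted p = 0.00423). Spry2, the other probe called higher, was above background on all 3 arrays with Crebl2 siRNA and on none with luciferase siRNA. It was tested only through the arrays where it is high, so its call is no support for a difference. Its signal followed the set: with Crebl2 siRNA and ethanol, replicate 3 read 189, while replicates 1 and 2, at 105 and 104, were not above background. Between these rapamycin arrays its level was higher by at least 1.61-fold, with siRNA and set not told apart. This bound sets the dimmest signal above background on each array, or the probe's own signal if higher, in place of its level. Egr1 was at 2206 ± 113, against 2758 ± 105, a fall of 1.25-fold (-0.32 ± 0.07, adjusted p = 0.00839), smaller than that with ethanol by the difference given above. With the term for the 4 arrays, which rests on replicate 3 of the Crebl2 ethanol arrays alone, the change was 0.81 for Dusp4 ILMN_2450767. It was 0.22 for Dusp6 ILMN_1248537 and -0.43 for Egr1. These 2 and Spry2 were then not called. Etv4 had a change of -0.45 ± 0.16 (adjusted p = 0.0564), which was called without replicate 1 of the luciferase rapamycin arrays (-0.58, adjusted p = 0.0356), replicate 1 of the Crebl2 rapamycin arrays (-0.58, adjusted p = 0.0384) or replicate 3 of the Crebl2 ethanol arrays (-0.45, adjusted p = 0.0025). Fos had a change of -0.30 ± 0.14 (adjusted p = 0.136), called without the last of these arrays (-0.30, adjusted p = 0.0323).

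The other genes of the pathway were read from lists by role, with 1 probe a gene and the same calls. Over 15908 genes, rapamycin gave 10.7% called with Crebl2 siRNA (4.78% higher, 5.89% lower) and 9.25% with luciferase siRNA (4.8% higher, 4.46% lower). Of 11 other feedback inhibitors tested, 2 rose and 1 fell with Crebl2 siRNA. These were Il17rd, a membrane inhibitor of FGF receptor signalling (1.29, adjusted p = 0.0173), Dusp1, a nuclear MAP kinase phosphatase (0.78, adjusted p = 0.0202), and Spry3, another Sprouty (-0.57, adjusted p = 0.00489). With luciferase siRNA only Spry3 of these 11 was called, and it fell (-0.39, adjusted p = 0.0304). Of 29 other immediate early genes, 4 rose and 0 fell with Crebl2 siRNA: Ccn1, a secreted matrix protein (1.41, adjusted p = 0.0122), Csrnp1, a nuclear factor (0.86, adjusted p = 0.0154), Zfp36, which destabilises AU-rich messages (0.61, adjusted p = 0.00766), and the small Maf factor Maff (0.51, adjusted p = 0.0451). With luciferase siRNA 3 of the 29 rose and 2 fell, led by Klf4, a zinc-finger factor (-1.28, adjusted p = 0.000415), the AP-1 subunit Fosl2 (0.97, adjusted p = 0.000762, with 1 of its 3 probes called and above 0), the stress-induced bZIP factor Atf3 (-0.91, adjusted p = 0.000592) and Klf2 (0.56). The median log2 change of the 29 was 0.16 with Crebl2 siRNA and 0.03 with luciferase siRNA, against -0.02 and 0.02 over all 15908 genes.

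Klf4 was the one listed gene called in the difference between siRNAs, against 0.308% of genes. Its change was 0.09 with Crebl2 siRNA and -1.28 with luciferase siRNA, a difference of 1.37 ± 0.18 (adjusted p = 0.0223), with 2 of its 3 probes called. In the difference, 0 feedback inhibitors, 0 ETS factors, 0 EGF ligands, 0 cascade genes and 0 Myc network genes were called by limma, with 3, 1, 0, 1 and 3 of them at an unadjusted p under 0.05. Of 7 other ETS factors and repressors, Etv1 (0.30) and Elk3 (0.29), a repressive partner of SRF, rose with Crebl2 siRNA, and Ets2 (-0.57, adjusted p = 0.01) fell with luciferase siRNA. Of 7 EGF family ligands, which act upstream of ERK, 0 were called with Crebl2 siRNA and 0 with luciferase siRNA (0 and 1 at an unadjusted p under 0.05). The 2 with the highest mean were Btc, with changes of -0.01 and 0.32, and Hbegf, with 0.15 and -0.09. Of 17 genes of the cascade itself, the receptor gene Pdgfra rose with both siRNAs (0.46 with Crebl2 siRNA, 0.76 with luciferase siRNA, by 1 of its 2 probes), and Map2k2, which encodes MEK2, fell with luciferase siRNA (-0.30). Of 8 genes of the Myc network, Mxd3 fell with Crebl2 siRNA (-0.70) and Mxd4 rose with luciferase siRNA (1.11), both MAX partners that oppose Myc.

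The lists depended on the set of arrays. These refits were chosen after seeing the data. With the term for the 4 arrays, rapamycin with Crebl2 siRNA gave 2 feedback inhibitors higher and 1 lower, 4 immediate early genes higher and 0 lower, and 0 ETS factors or cascade genes. Of all 15908 genes, 4.13% were then higher and 2.47% lower. Without replicate 3 of the Crebl2 ethanol arrays it gave 3 and 1 feedback inhibitors and 11 and 1 of the 29 immediate early genes, where 15.9% of all genes were higher and 22.7% lower. In the difference between siRNAs, 10 immediate early genes were then higher and 2 lower, against 1 and 0 with all arrays, while the share of all genes called was 27.3% (11.6% higher, 15.6% lower), against 0.308%. With luciferase siRNA, within the 7 arrays that did not stand apart, 4 immediate early genes rose and 3 fell, where 11.6% of all genes rose and 9.62% fell. Between the siRNAs with ethanol, 1 of the 29 immediate early genes was higher and 5 lower with Crebl2 siRNA (1.32% and 5.32% of all genes). The 5 lower, named after their values were seen, were Klf4 (-1.19), Mcl1 (-1.08), Junb (-0.90), Atf3 (-0.88) and Ier3 (-0.83).

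**Figure D4:**
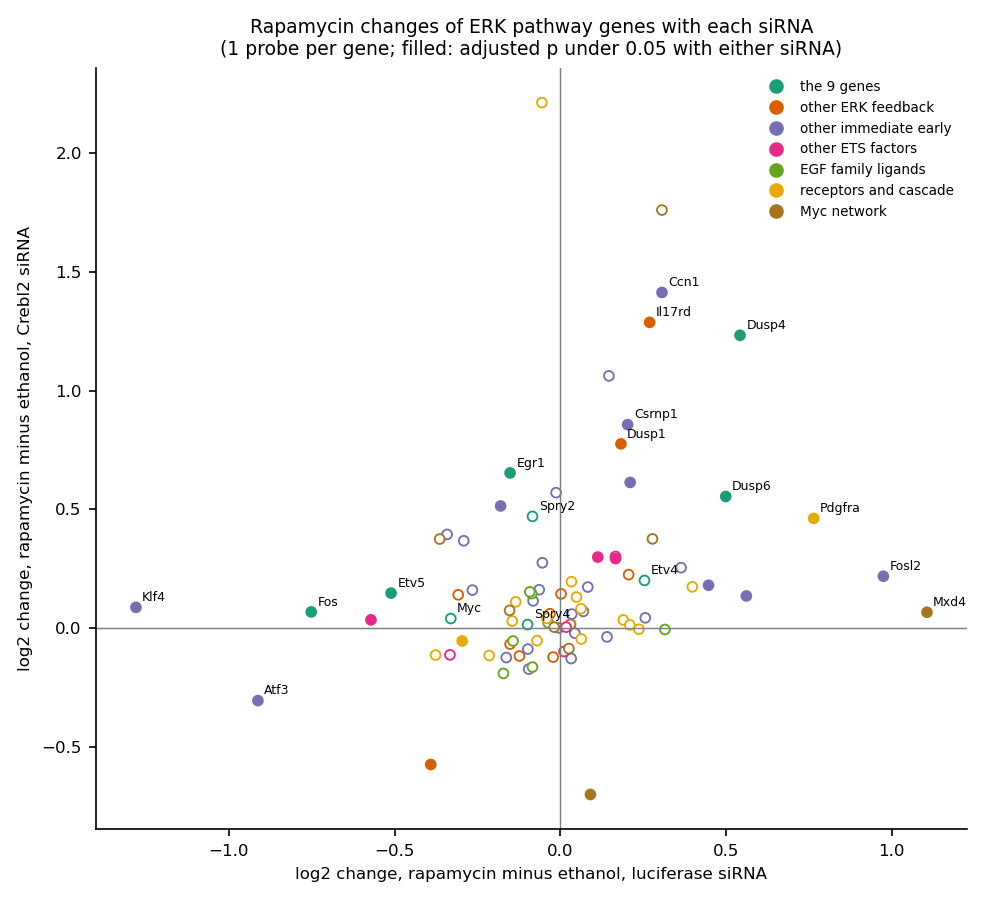
Log2 change with rapamycin for each listed gene and each of the 9 genes, with luciferase siRNA on the horizontal axis and Crebl2 siRNA on the vertical axis, coloured by list. Klf4 lies at -1.28 and 0.09, Fos at -0.75 and 0.07, and Dusp4 at 0.54 and 1.23.

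Across the 11 arrays the genes most like Dusp6 (ILMN_2925711) by Pearson's r of log2 values were Tmem106c (0.974), Timp3 (0.970) and D5Ertd579e (0.964), with 0.975, 0.975 and 0.969 over the 7 arrays that did not stand apart. Those most like Myc were Olfr1419 (0.927), Kif16b (0.924) and Hc (0.922), with 0.958, 0.942 and 0.955 over the 7. These are the highest of 15908 genes over arrays that share groups and scaling, and are given as a description.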

How the data were processed

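Per the labels, RNA was hybridised to single-colour Illumina arrays. The authors deposited linear intensity values normalized between arrays, by a method not given in the sources used here, with a detection p-value per probe and array, per the file headers. The value table of the series matrix held the same values (0 differed). Probe names came from GEO's platform annotation (35784 probes with 1 symbol, 0 with several, 10453 with none). In the authors' deposited non-normalized intensity table the identifiers do not belong to their lines: pairs of probes of 1 symbol correlated at -0.0017 there and at 0.477 in the normalized table. It served only as an alternative, with lines matched by rank.

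Intensities were taken to log2 with no pseudocount. Probes with a detection p-value under 0.05 on at least 2 arrays were kept (28936). limma 3.58.1 in R 4.3.3 (lmFit, eBayes) fitted 4 group means over all 11 arrays, with 7 residual degrees of freedom and 3.64 prior ones. p-values were two-sided and Benjamini-Hochberg adjusted over all kept probes, with a threshold of 0.05. A gene with several probes is represented by that with the highest mean. The number of arrays limits the precision. Simulated data of 28936 probes had independent normal noise, no shared shift of the 4 arrays, and 100 changed probes of each size. In them, shifts of 1 on the log2 scale were recovered for 79% of probes with luciferase siRNA, 91% with Crebl2 siRNA and 69% for the difference. Shifts of 0.5 were recovered for 35%, 51% and 6%. The real arrays differ in these settings, so the shares are not the recovery in these data.

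All probes of the genes are given, whatever their values. From each list of other genes, up to 4 called genes with the largest change in either rapamycin comparison or their difference are named, or 2 with the highest mean where none was called. The genes and lists were chosen with earlier results of these data known. Replicate numbers did not pair the samples: deviations of same-numbered arrays correlated at -0.106 to 0.146 over 15 pairs, with 1 over 0.1. The 23 alternatives covered background correction, scaling, filters, 1 probe per gene, the arrays in the fit, array weights, blocks and leaving out each array.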

Additional observations from a re-analysis of the deposited data

Results flagged for a closer look

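The change of Egr1 with rapamycin differed between the siRNAs by the test of the difference itself. It was 0.65 with Crebl2 siRNA and -0.15 with luciferase siRNA on the log2 scale, a difference of 0.81 ± 0.11 (SE, adjusted p = 0.0233, limma). All 3 Crebl2 rapamycin arrays lay above all 3 Crebl2 ethanol arrays, and all 3 luciferase rapamycin arrays lay below both luciferase ethanol arrays. Of all probes, 23.9% did not overlap between rapamycin and ethanol with Crebl2 siRNA and 41% with luciferase siRNA. The difference was called in 9 of 21 alternatives. It was not called on leaving out any 1 of 9 of the 11 arrays, nor under normexp (0.85, adjusted p = 0.212), neqc (0.79, adjusted p = 0.223) or the replicate block (0.80, adjusted p = 0.0763).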

How the results depend on the processing

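No change reversed among calls in the 23 alternatives. Over the 15 probes and all comparisons, 1496 results kept their side of the threshold, 47 passed it anew and 87 lost it. Of the 15 probes, normexp left 1 called, lower, for rapamycin with luciferase siRNA and 0 in the difference between siRNAs. In that difference 9 were at an unadjusted p under 0.05 (limma), against 3487 of all 28936 probes. neqc left 1, lower, and 0 (7 unadjusted, against 3648 of all probes), and 4 between the siRNAs with ethanol. A term for the 4 arrays that stood apart gave 3 in the difference, against 1 in the main fit, where 412 of all probes were called, against 67. It gave 1 between the siRNAs with rapamycin, against 4, where 575 of all probes were called, against 8676. As said above, these p-values hold no spread of replicate 3 of the Crebl2 ethanol arrays. Fitting only the groups compared gave 2 for rapamycin with Crebl2 siRNA and 0 between the siRNAs with ethanol (9 unadjusted, against 3662 of all probes). Array weights gave 8 in the difference, the Myc probe among them (0.39, adjusted p = 0.0335), where 6950 of all 28936 probes were called. The replicate block, with numbers for which no pairing was shown, gave 0 in the difference (9 unadjusted, against 5056 of all probes). Leaving out each array gave 0 to 6 for rapamycin with luciferase siRNA, 2 to 6 with Crebl2 siRNA, 0 to 7 in the difference, 2 to 8 between the siRNAs with ethanol and 4 to 6 with rapamycin. The cause of these moves was not tested.

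Over all probes the counts, in the order rapamycin with luciferase siRNA (2099), with Crebl2 siRNA (2614), the difference (67), Crebl2 against luciferase siRNA with ethanol (1598) and with rapamycin (8676), moved by over 1.5 times as follows. normexp gave 1150, 1299, 1 and 848 for the first 4, and neqc 1070, 1700, 0 (3648 unadjusted) and 733. The term for the 4 arrays gave 5172, 1546, 412, 3109 and 575. Only the 7 other arrays gave 5113 and, for siRNAs with ethanol, 3058. Only the groups compared gave 4697 and 206, and 0 for siRNAs with ethanol (3662 unadjusted). Array weights gave 4674, 10531, 6950 and 3473. The replicate block gave 11 in the difference and 968 for siRNAs with ethanol. With 1 probe per gene, 5231 were called for siRNAs with rapamycin, over fewer probes. Leaving out an array gave 584 to 5172, 630 to 10247, 0 to 7244 (2425 unadjusted where 0), 224 to 3109 and 5939 to 11790. Spry4, Myc, Spry2, Dusp4 ILMN_2608995 and Dusp6 ILMN_2701321 lie near background, which limits the changes these arrays can show for them.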
